A study of Mus musculus with 37 samples.

Results

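The genes described here are 36 markers of the cells that surround germ cells in the embryo: the somatic gonad, its mesenchyme, blood vessels and simple epithelium. They were listed by name, with earlier results of these data known, and all 36 were found among the 24318 genes of each deposited table. By role they fell into 5 transcription factors of the gonadal soma, 7 transcription factors of mesenchyme, 2 receptors for platelet-derived growth factor, 11 genes of matrix and cytoskeleton, 8 endothelial genes and 3 keratins.

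The study sequenced polyadenylated RNA of primordial germ cells (PGCs) from mouse embryos, the cells that later form eggs and sperm, with and without the maintenance DNA methyltransferase Dnmt1. Embryos came from Oct4-IRES-Gfp; Dnmt1 2lox females crossed with Blimp1-Cre males, so all groups come from a cross that carries a green fluorescent Oct4 reporter. PGCs positive for the reporter were sorted, and the RNA was extracted with a column kit and amplified before library preparation. Of 37 samples in the labels, 25 were used, taken at embryonic days E10.5 and E11.5, and 12 of a later stage were not analysed here.

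The conditional knockout group, named DCKO in the sample titles, carries the genotype label Dnmt1 -/-, and the controls carry the label wild type. Which reporter, floxed and Cre alleles each control embryo carried is not given in the labels. Blimp1-Cre is driven from the Blimp1 (Prdm1) gene, which early germ cells express, and it is not restricted to them. At E10.5 there were 2 female and 1 male DCKO libraries and 2 female and 2 male control libraries. At E11.5 there were 6 female and 4 male DCKO libraries and 4 female and 4 male control libraries. Whether each library of a group is a separate embryo is not stated, so p-values measure the spread between these libraries, which may be technical in part.

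As background, PGCs migrate through the hindgut and its mesentery and enter the genital ridges, where they are enclosed by coelomic epithelium and mesenchyme and lie close to developing vessels. Wt1, Gata4, Nr5a1, Lhx9 and Emx2 are transcription factors needed to form that ridge. Fibrillar collagens, decorin and lumican are made by mesenchymal cells, and Cdh5, Kdr and Tek mark endothelium. In RNA from a sorted population such genes report on cells other than germ cells, apart from members that germ cells also transcribe. In bulk RNA, fewer cells of a type and less RNA per cell cannot be told apart.

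Values are RPKM, reads scaled to gene model length and to mapped reads, and levels of groups of genes are means of log2(RPKM + 1). Libraries held between 8277 and 13200 genes of at least 1 RPKM, and the depth in reads is unknown. Dnmt1, the targeted gene, reached at most 59.4 RPKM in the 10 E11.5 DCKO libraries and at least 72.9 RPKM in the 8 controls. That is a log2 fold change of -2.07, with an SE of 0.34 and a limma adjusted p of 0.0355. At E10.5 it ran from 14.9 to 29.6 RPKM in DCKO and from 74.1 to 107 RPKM in controls, with a log2 fold change of the same size, -2.07, an SE of 0.38 and a limma adjusted p of 0.991. The label of germ cells was checked with 13 germ cell genes, such as Dppa3, Utf1 and Kit, of which 11 to 13 reached 1 RPKM in every library.

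Promoter windows of 4 members are shown because these genes span the range of the data: the collagens Col1a2 and Col3a1 varied most plainly with the libraries, whereas Sparc and Vim were present nearly everywhere. The sequences are the 250 bases upstream of the RefSeq start in build GRCm38.p6, 5′ to 3′ on the gene's strand, which is a different build from the mm9 of the deposited tables. Matches on either strand to the TATA box motif TATAAA are in capitals. Matches to the GATA factor motif AGATAA, the GC box motif GGGCGG and the E-box motif CACCTG, searched the same way, are in capitals too, and none of the 4 motifs contains another. The windows are chr6:4505368-4505617 (+) for Col1a2, chr1:45311288-45311537 (+) for Col3a1, chr11:55420081-55420330 (-) for Sparc and chr2:13574061-13574310 (+) for Vim.
Col1a2: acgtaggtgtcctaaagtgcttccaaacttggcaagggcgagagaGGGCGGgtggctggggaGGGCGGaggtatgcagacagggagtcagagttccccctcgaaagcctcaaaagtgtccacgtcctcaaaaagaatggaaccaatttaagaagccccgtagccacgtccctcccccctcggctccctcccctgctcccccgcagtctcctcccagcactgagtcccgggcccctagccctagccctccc
Col3a1: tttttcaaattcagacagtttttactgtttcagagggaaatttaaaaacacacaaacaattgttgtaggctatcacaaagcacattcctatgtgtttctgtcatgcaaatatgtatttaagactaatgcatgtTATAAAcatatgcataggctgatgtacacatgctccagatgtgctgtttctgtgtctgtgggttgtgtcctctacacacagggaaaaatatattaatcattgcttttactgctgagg
Sparc: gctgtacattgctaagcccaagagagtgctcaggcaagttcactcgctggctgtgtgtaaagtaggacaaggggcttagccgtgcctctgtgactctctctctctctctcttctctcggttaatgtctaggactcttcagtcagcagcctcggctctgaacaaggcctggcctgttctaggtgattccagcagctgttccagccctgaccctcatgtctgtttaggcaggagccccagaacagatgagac
Vim: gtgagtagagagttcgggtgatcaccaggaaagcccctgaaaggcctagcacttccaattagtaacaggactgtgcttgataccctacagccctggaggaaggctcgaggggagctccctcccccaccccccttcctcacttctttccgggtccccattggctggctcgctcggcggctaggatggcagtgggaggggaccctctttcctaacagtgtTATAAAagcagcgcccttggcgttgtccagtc

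Col1a2 had a pair of GC boxes, at -205 and -188 from the start, Col3a1 had a TATA box at -117, Vim had one at -32, and the Sparc window held no match. Promoters of 25 of the 36 members, in 27 windows, were searched. Of these windows 6 held TATAAA, 2 AGATAA, 8 GGGCGG and 2 CACCTG. Among all 32851 promoter windows in the table, the shares were 12.4%, 9.99%, 32.7% and 17.2%. A match is a description of letters in the window and does not show that a factor binds there.

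Somatic marker levels differed far more between single libraries than between genotypes. At E11.5, 3 libraries stood apart: male control 3 with a mean log2 level of 5.04 over the 36 members, female DCKO 4 with 4.38 and male DCKO 1 with 3.88. The other 15 libraries lay between 0.73 and 2.88, with a median of 1.37, and the highest of them was female control 3. Both genotypes and both sexes were represented among the 3. The 3 were picked by the mean of these same members, so the counts of members that follow rest in part on that choice. Between them they held the highest value of 31 of the 36 members, 21 in male control 3, 3 in female DCKO 4 and 7 in male DCKO 1. In 20 members all 3 libraries were above all 15 others, and the highest values of Lhx9, Tek, Eng, Krt18 and Krt19 lay elsewhere. Members at 1 RPKM or more numbered 36, 35 and 28 in the 3 libraries and between 6 and 32, with a median of 18, in the others.

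**Figure D1:**
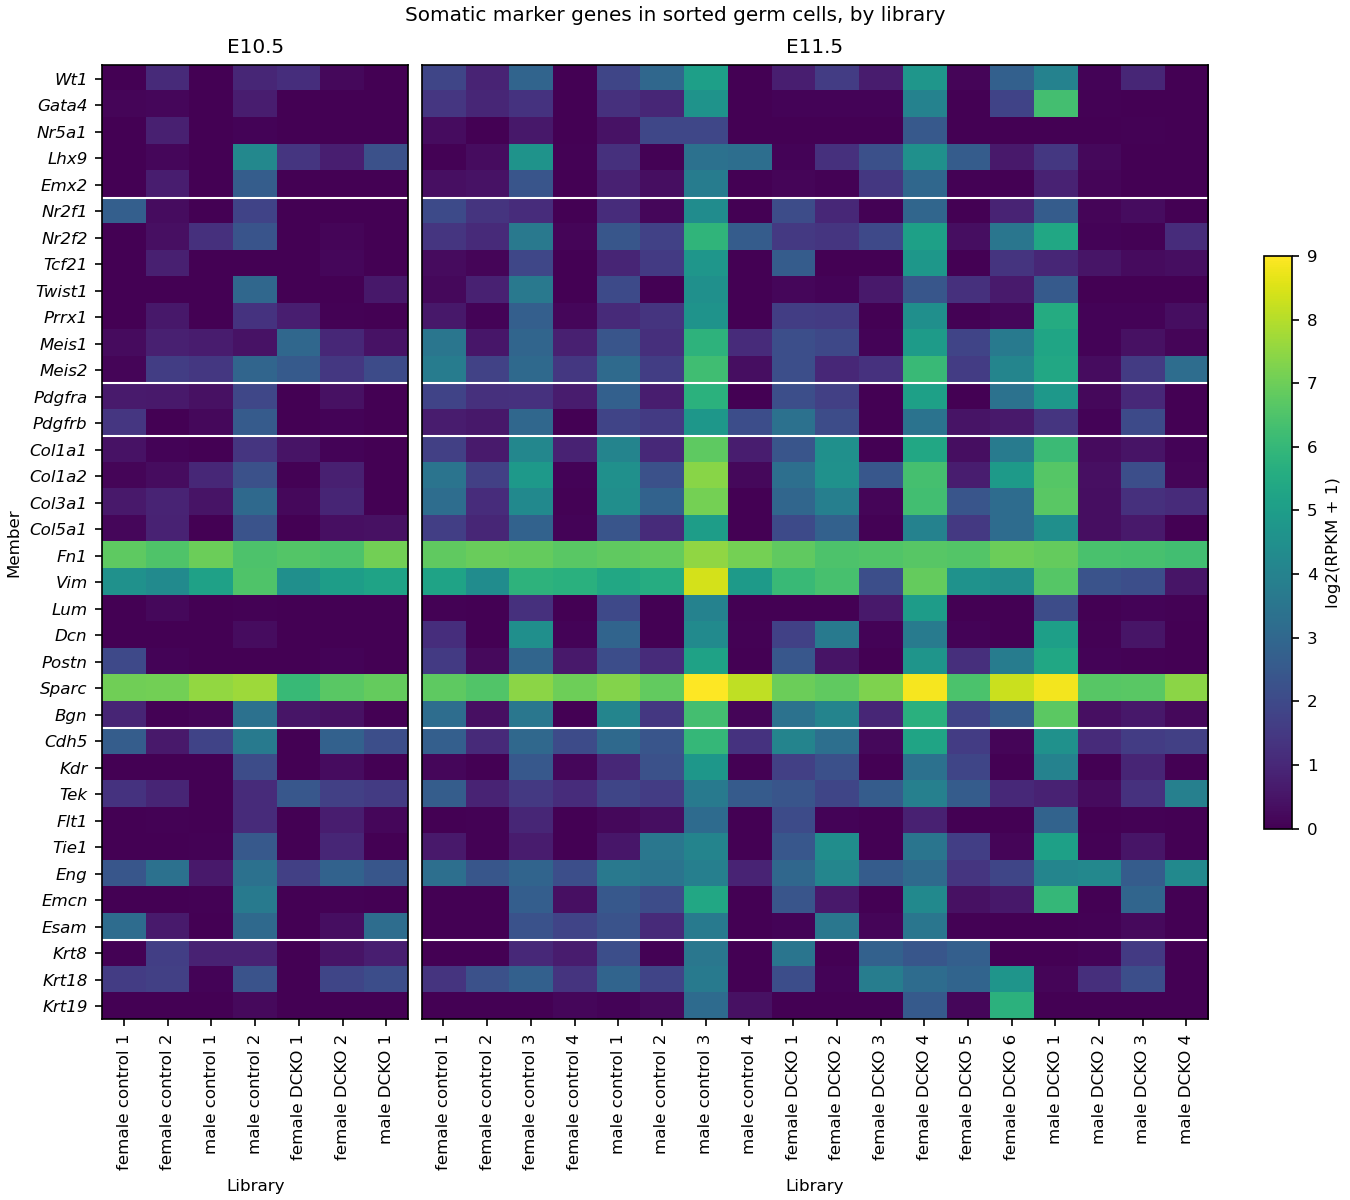
Level of each of the 36 members (rows, white lines between classes) in each library (columns) as log2(RPKM + 1), for the 7 E10.5 and 18 E11.5 libraries. The libraries male control 3, female DCKO 4 and male DCKO 1 are bright over most rows at E11.5, and Fn1, Sparc and Vim are bright in most columns.

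Mesenchymal and endothelial markers outside the 36 members were high in the same libraries. Of 27 further mesenchymal genes, such as Fbn1 and Cdh11, 27 reached 1 RPKM in male control 3, 27 in female DCKO 4 and 24 in male DCKO 1, against 6 to 25 (median 11) in the other 15 libraries. Their summed level was 2247, 1281 and 2035 RPKM, in that order, against 33.7 to 389 RPKM. Of 19 further endothelial genes that were found, 19, 16 and 13 reached 1 RPKM, against 1 to 12, and the sums were 330.5, 163 and 539 RPKM against 41.5 to 158 RPKM. Further gonadal genes did not separate the libraries in this way: of 19, 15, 13 and 10 reached 1 RPKM, against 3 to 10. Rspo1, a secreted Wnt agonist, made up 148 RPKM of their sum of 209.9 RPKM in male DCKO 1. Without Rspo1 the sums were 121, 115 and 61.4 RPKM, all within the 26.5 to 126 RPKM of the others.

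Most germ cell genes were low in the same libraries, though not all. The 13 germ cell genes summed to 411 RPKM in male control 3, 1847 RPKM in female DCKO 4 and 2271 RPKM in male DCKO 1, and to between 3405 and 6066 RPKM in the other 15. Dppa3, a germ cell chromatin protein also called Stella, was at 153, 1053 and 643 RPKM in the 3 libraries, against a median of 2161 RPKM over all 18. Of the 13 genes, 12 were below their median over the 18 libraries in male control 3, where 11 were lowest of all, 11 in female DCKO 4 and 9 in male DCKO 1. In male DCKO 1 the AP-2 factor gene Tfap2c, at 96.5 RPKM, and its relative Tfap2a, at 5.24 RPKM, were the highest of the 18 libraries, and Dnd1 and Ifitm3 were above their medians. Across the 18 libraries the mean level of the members and that of the germ cell genes had a Pearson r of -0.76 and a Spearman rho of -0.45. Without the 2 libraries farthest from the median member level r was -0.36, and over the 15 other libraries it was 0.03, so the relation rests on the libraries that stand apart. At E10.5 it was -0.36 (n = 7). Values of a library share 1 scaling to mapped reads, so high levels of some genes lower the others.

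**Figure D2:**
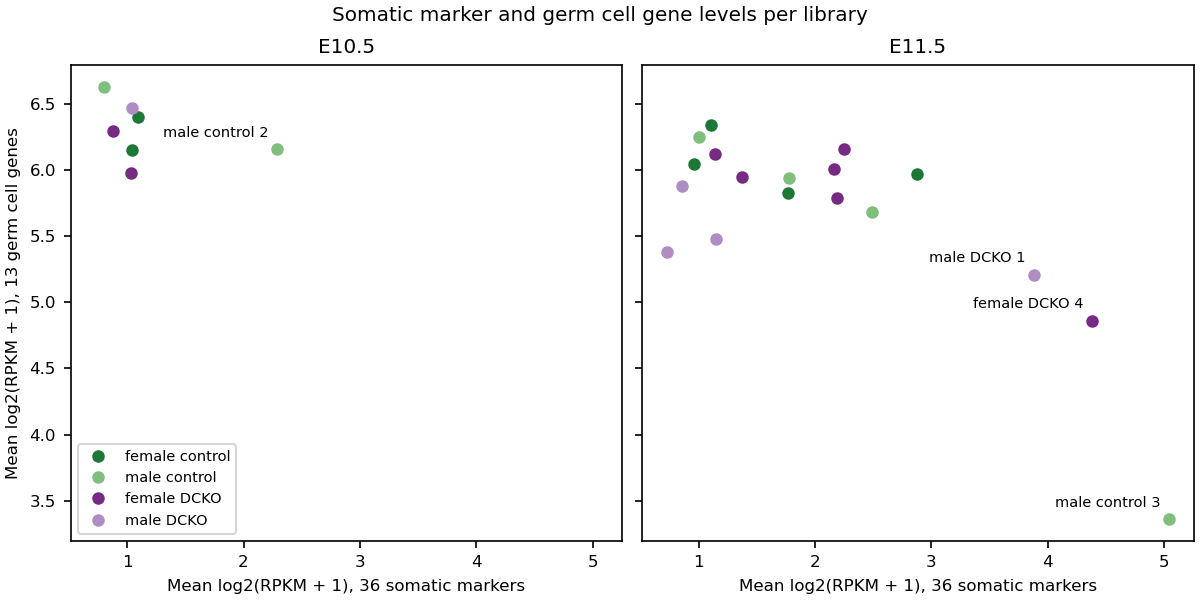
Each point is 1 library, with the mean log2(RPKM + 1) of the 36 somatic markers on the x axis and that of the 13 germ cell genes on the y axis, coloured by sex and genotype. Male control 3 lies at 5.04 and 3.36, and the 15 libraries below 3 on the x axis lie between 5.38 and 6.34 on the y axis.

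Blood and macrophage genes did not follow the same order. The 12 erythroid genes, globins among them, summed to 2292 RPKM in male control 3 and 1673 RPKM in female DCKO 4, and all 12 were listed at 0 in male DCKO 1. In the other 15 libraries the sum ran from 0.041 to 1448 RPKM. Of 12 macrophage genes, 9 reached 1 RPKM in male control 3, 3 in female DCKO 4 and 2 in male DCKO 1, against 0 to 6. An exact 0 in a table of normalized values can be a failed estimate, so these genes are described only as listed at 0.

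The sample titles carry a number whose meaning the labels do not give. Number 90 was shared by female DCKO 4, female control 3 and male control 3, whose member means ran from 2.88 to 5.04. Male DCKO 1 was the single library with number 88. The remaining numbers at E11.5 held libraries between 0.73 and 2.49. Dnmt1 in the DCKO libraries that stood apart was 23.1 RPKM in female DCKO 4 and 59.4 RPKM in male DCKO 1. The part of other cells, of title number and of scaling in the results below was not tested.

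At E10.5 male control 2 stood apart, at a lower level. Its mean log2 level over the members, by which it was picked, was 2.29, against 0.80 to 1.09 in the other 6 libraries. It held the highest value of 24 members, a count that rests in part on that choice. In it 26 members reached 1 RPKM, against 6 to 11. Of the 27 further mesenchymal genes 20 did, against 6 to 13, and of the 19 further endothelial genes 14, against 2 to 5. The germ cell genes summed to 4464 RPKM in it, within the 3805 to 6492 RPKM of the others.

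Members rose and fell together across E11.5 libraries to different degrees. The correlation of each tested member with the mean of the other 34, over 18 libraries, had a median of 0.85 and ran from 0.28 for Krt18 to 0.95 for Col3a1, with 21 of 35 above 0.8. Over the 15 other libraries the median was 0.60, from -0.08 for Tek to 0.92 for Col3a1. Col5a1 and Bgn were also above 0.9 there, at 0.91 each, whereas Sparc was at 0.19, Eng at 0.10 and Krt8 at 0.17. These are descriptions: the libraries share a scaling and the 3 high libraries weigh heavily.

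Class means showed the same split. Over the 15 other libraries the matrix genes had r = 0.88 with the mesenchymal factors and 0.85 with the PDGF receptors, 0.67 with the gonadal factors, 0.62 with the endothelial genes and 0.34 with the keratins. The endothelial genes and keratins had r = -0.16. Of the 12632 tested genes that are no members, the 10 most like the mean of the members over 18 libraries were Fbn1 (r = 0.98), Unc5c, Hoxb3, Flrt2, Dchs1, Col12a1 and Ddr2 (0.97 each), and Parva, St8sia2 and Col4a1 (0.96 each). Over the 15 other libraries the r of these 10 ran from 0.83 for St8sia2 to 0.94 for Fbn1. Over the 7 E10.5 libraries it ran from -0.06 for Dchs1 to 0.95 for Hoxb3, at mean levels of at most 1.41 RPKM. Fbn1 also stands in the list of further mesenchymal genes. In all, 468 of the 12632 (3.70%) had an r above 0.8.

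**Figure D3:**
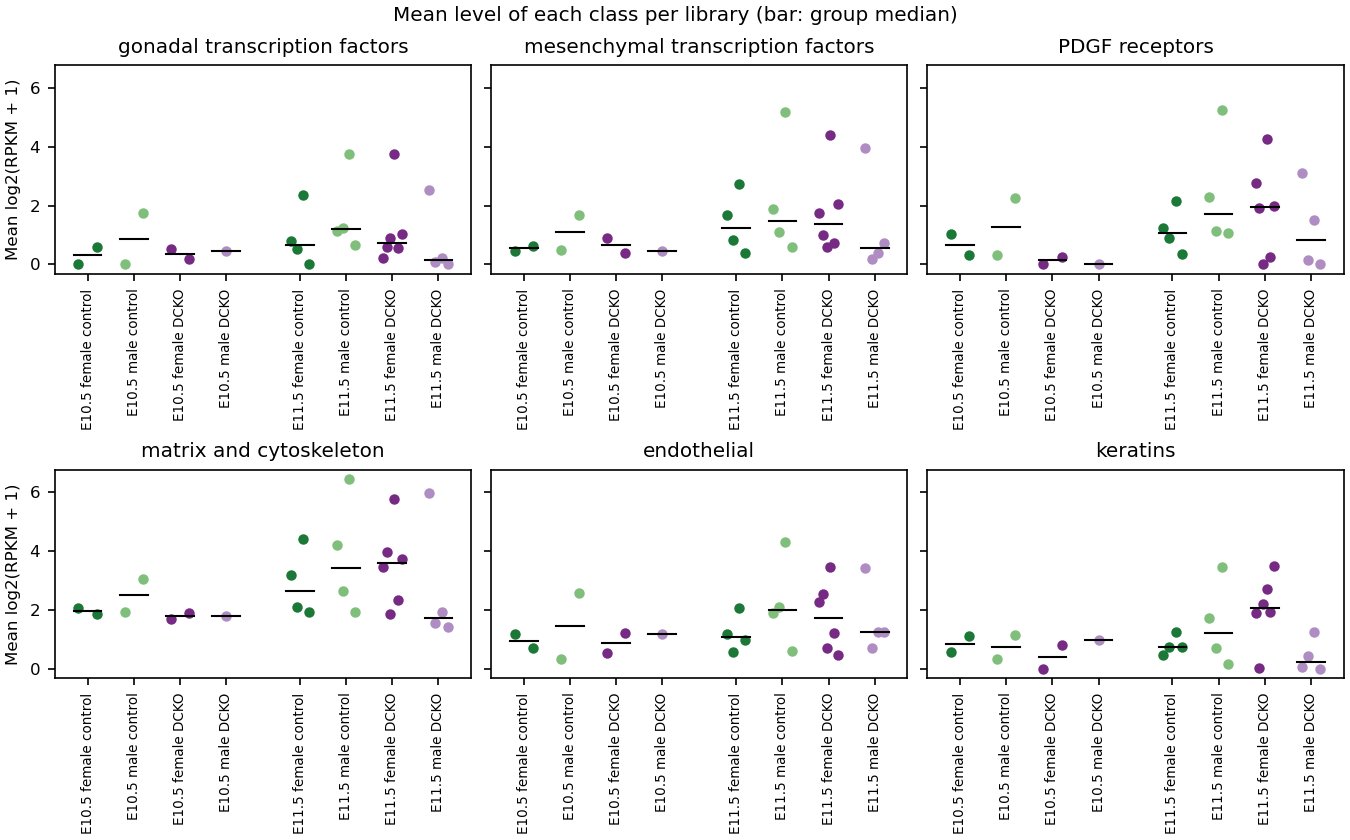
Mean log2(RPKM + 1) of each class of members per library (points), by stage, sex and genotype, with the group median as a bar. Male control 3, female DCKO 4 and male DCKO 1 are the 3 highest points at E11.5 in every class except the keratins, where the highest is female DCKO 6 at 3.49.

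The gonadal transcription factors were near 0 in most libraries. Wt1, a regulator of the ridge epithelium, had a lowest, median and highest value of 0, 0.826 and 25.8 RPKM in the 10 DCKO libraries at E11.5 and of 0, 2.69 and 33.0 RPKM in the 8 controls. It was at 33.0 RPKM in male control 3, 25.8 in female DCKO 4 and 14.7 in male DCKO 1, and at most 7.05 RPKM elsewhere, so the genotypes overlapped over nearly their whole range.

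Gata4, a zinc finger factor of the ridge, had a median of 0.0554 RPKM in DCKO and 1.17 RPKM in control libraries at E11.5. It was at 78.8 RPKM in male DCKO 1, 23.9 in male control 3 and 14.9 in female DCKO 4, and at most 2.48 RPKM in the others. Lhx9, a LIM homeobox factor, had its highest value, 23.8 RPKM, in female control 3. In male DCKO 1, where Gata4 was highest, Lhx9 was at 1.77 RPKM and Emx2 at 0.823 RPKM, so the 5 factors did not keep a fixed ratio between libraries. Nr5a1, the steroidogenic factor, was listed at 0 in 11 of 18 libraries, reached 4.77 RPKM in female DCKO 4, and was the 1 member below the filter of a mean of 1 RPKM at E11.5.

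No gonadal factor that was tested passed the adjusted threshold for genotype, and the SEs were too wide to show that levels were equal. At E11.5 the log2 fold changes of the 4 tested, all below 0, ran from -0.50 (SE 0.56) for Emx2 to -0.02 (SE 0.87) for Gata4, with limma adjusted p from 0.966 to 0.999. At E10.5 Lhx9 was the 1 member of the class tested, at 1.60, 0.683 and 3.66 RPKM in DCKO and 0, 0.112, 0 and 17.2 RPKM in control libraries, the last in male control 2. This gave a log2 fold change of 0.64, with an SE of 1.00 and a limma adjusted p of 0.991. Wt1 reached at most 1.26 RPKM at E10.5, and Gata4 at most 0.657 RPKM.

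Among mesenchymal transcription factors, Meis2 and Nr2f2 were the most widely present. Meis2, a TALE homeobox factor, had a lowest, median and highest value of 0.242, 2.77 and 67.2 RPKM in DCKO and 0.248, 4.90 and 75.4 RPKM in control libraries at E11.5. Nr2f2, also called COUP-TFII, had values of 0.0419, 1.73 and 40.6 RPKM in DCKO and 0.0962, 3.33 and 58.6 RPKM in controls. Meis1 had medians of 2.75 and 2.72 RPKM. Each of the 3 was above 29 RPKM in all 3 libraries that stood apart and at most 16.1 RPKM elsewhere.

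Prrx1, a factor of limb and body wall mesenchyme, was at 45.9 RPKM in male DCKO 1, 23.6 in male control 3 and 21.6 in female DCKO 4, and at most 5.63 RPKM elsewhere. Tcf21 was at 25.6 RPKM in male control 3 and 26.1 in female DCKO 4, but at 0.942 RPKM in male DCKO 1. Twist1 was at 21.7 RPKM in male control 3 and 11.4 RPKM in female control 3, and at 4.82 and 4.30 RPKM in male DCKO 1 and female DCKO 4. Nr2f1 was at 19.9 RPKM in male control 3 and at most 6.82 RPKM in any other library. These ranges again overlapped between genotypes.

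At E11.5 the 7 mesenchymal factors had log2 fold changes from -0.65 (SE 0.67) for Twist1 to 0.08 (SE 0.85) for Prrx1, 6 of them below 0, with limma adjusted p from 0.958 to 0.999. At E10.5 the 4 tested ran from -1.26 (SE 0.83) for Nr2f1 to 0.82 (SE 0.77) for Meis1, each at a limma adjusted p of 0.991. Nr2f1 was at 0, 0 and 0.0215 RPKM in the 3 DCKO libraries and at up to 5.61 RPKM, in female control 1, among the 4 controls. Meis1 was at 7.07 RPKM in female DCKO 1 and below 1 RPKM in the other 6.

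The PDGF receptors, which carry growth signals in mesenchyme and in cells around vessels, followed the same libraries. Pdgfra had a median of 1.66 RPKM in DCKO and 1.39 RPKM in control libraries at E11.5, and reached 53.2 RPKM in male control 3, 33.3 RPKM in female DCKO 4 and 27.0 RPKM in male DCKO 1. Pdgfrb, the receptor of perivascular cells, was at 25.9 RPKM in male control 3 and 9.67 RPKM in female DCKO 4 but at 1.62 RPKM in male DCKO 1, below the 9.19 RPKM of female DCKO 1. The log2 fold changes at E11.5 were 0.00 (SE 0.86) and -0.54 (SE 0.62), with limma adjusted p of 0.999 and 0.969. Neither receptor passed the filter at E10.5, where both were highest in male control 2, at 2.79 and 5.04 RPKM.

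Matrix and cytoskeletal genes fell into those present in nearly all libraries and those near 0 in many. Fibronectin (Fn1), an adhesive glycoprotein of the matrix, lay between 88.7 and 134 RPKM at E10.5 and between 75.9 and 179 RPKM at E11.5. Sparc, a secreted collagen-binding glycoprotein, lay between 66.1 and 203 RPKM and between 87.1 and 502 RPKM. Both stood above the 90th percentile of genes by median at both stages, which no other member did. In RPKM, a value per length, both were above each of the 4 collagens among the members in every library.

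The collagens varied far more between libraries. Col3a1, a fibrillar collagen of loose tissue, was at 138 RPKM in male control 3, 103 in male DCKO 1 and 75.8 in female DCKO 4. In the other 15 libraries it ran from 0 to 20.7 RPKM with a median of 4.24 RPKM. Col1a2 was at 166, 98.8 and 80.7 RPKM in the same order and between 0.0672 and 28.6 RPKM elsewhere. Its promoter and that of Col3a1, printed above, differ in the motifs they hold, though both genes were highest in the same libraries. Col1a1 reached 109 RPKM, Col5a1 31.6 RPKM and the small proteoglycan Bgn 106 RPKM, each highest in male control 3 or male DCKO 1. Lum, another proteoglycan, was listed at 0 in 7 libraries and highest in female DCKO 4, at 30.3 RPKM. Dcn reached 32.5 RPKM and Postn 40.5 RPKM, both in male DCKO 1.

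**Figure D4:**
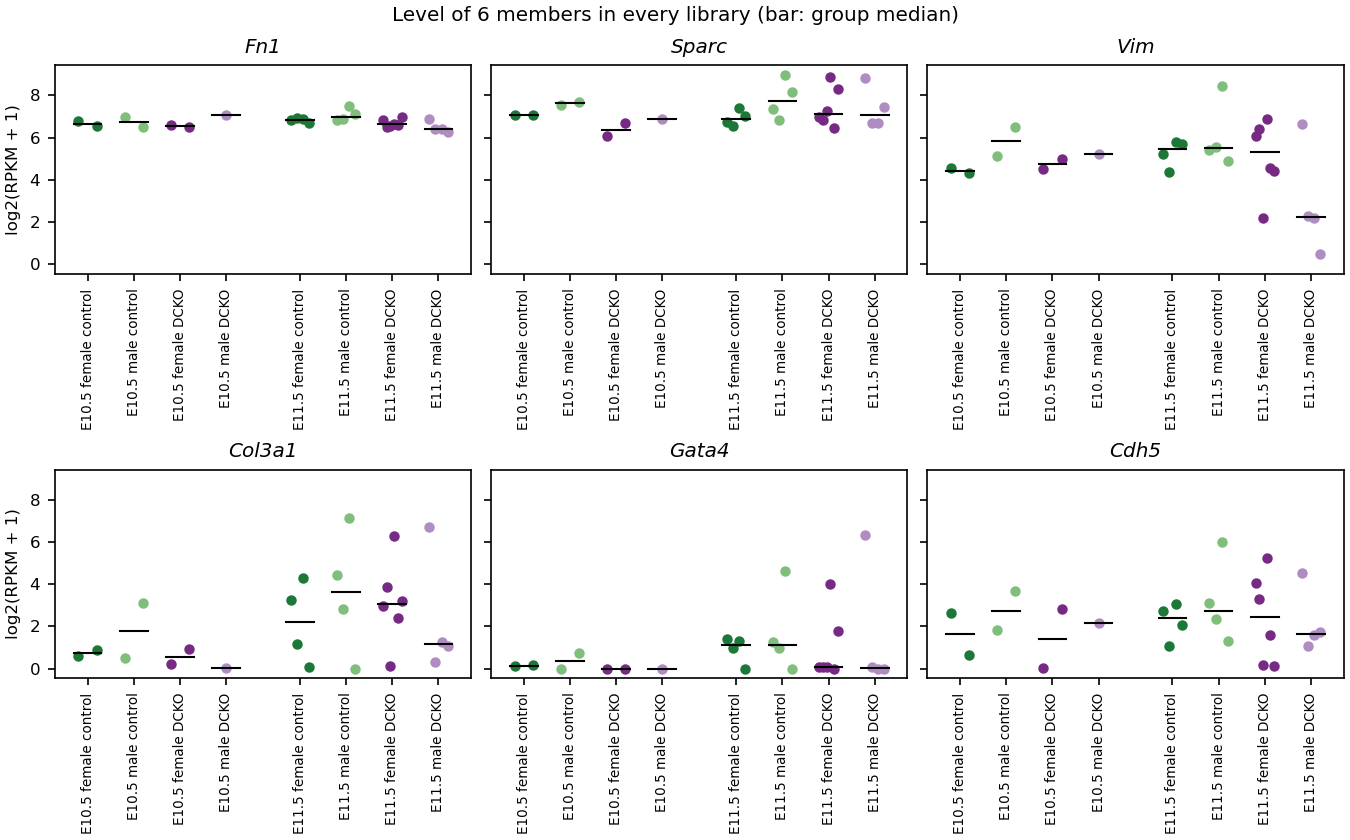
Level of 6 members in every library as log2(RPKM + 1), by stage, sex and genotype, with the group median as a bar. Fn1 and Sparc are high in every library, Vim is low in 4 of the 10 E11.5 DCKO libraries, and Col3a1, Gata4 and Cdh5 are highest in single libraries of several groups.

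Vimentin (Vim), the intermediate filament protein of mesenchymal cells, differed from the other matrix genes. At E11.5 it was at 66.8, 82.7, 3.51, 116, 22.9 and 20.3 RPKM in female DCKO libraries 1 to 6, and at 98.9, 3.94, 3.51 and 0.407 RPKM in male DCKO libraries 1 to 4. Female control libraries 1 to 4 were at 36, 19.9, 54.9 and 50.9 RPKM, and male control libraries 1 to 4 at 41.4, 46.7, 341 and 28.9 RPKM. In all, 4 DCKO libraries, 3 of them male, lay below every control, and the other 6 lay within the range of the controls.

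The log2 fold change of Vim was -1.68 (SE 0.76), with an unadjusted p of 0.0393 and a limma adjusted p of 0.902 over the 12667 genes tested. Within males it was -3.17 (SE 1.12, limma adjusted p = 0.632) and within females -0.19 (SE 1.02, limma adjusted p = 1.00). Without the 3 libraries highest in the members it was -2.09 (SE 0.55, unadjusted p = 0.00172, limma adjusted p = 0.628) over both sexes and -3.64 (SE 0.85, unadjusted p = 6.5e-04, limma adjusted p = 0.552) in males. The difference did not pass the adjusted threshold in either set of libraries. At E10.5 Vim ran from 21.6 to 36.1 RPKM in DCKO and from 18.9 to 90.8 RPKM in control libraries, a log2 fold change of -0.06 with an SE of 0.47 and a limma adjusted p of 0.993.

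Fn1 had a smaller and tighter difference. At E11.5 it had a lowest, median and highest value of 75.9, 93.4 and 125 RPKM in DCKO and of 102, 115 and 179 RPKM in control libraries, so 7 of the 10 DCKO libraries lay below all 8 controls. The means were 97.0 ± 16.1 RPKM (SD, n = 10) and 124 ± 24.4 RPKM (SD, n = 8). The log2 fold change was -0.37 (SE 0.16), with an unadjusted p of 0.0341 and a limma adjusted p of 0.902. Without the 3 libraries it was -0.37 (SE 0.15, limma adjusted p = 0.716). At E10.5 it was 0.07 (SE 0.32, limma adjusted p = 0.991).

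Sparc had separate ranges at E10.5, as did 5.15% of all genes tested there. It was at 66.1 and 102 RPKM in the female DCKO libraries and 117 RPKM in the male one, at 133 and 135 RPKM in the female controls and at 187 and 203 RPKM in the male controls. Every DCKO library was below every control. The log2 fold change was -0.71 (SE 0.31), with an unadjusted p of 0.0479 and a limma adjusted p of 0.991, and it was -0.69 (SE 0.36) without male control 2. At E11.5 the ranges overlapped almost fully, 87.1 to 473 RPKM against 93.4 to 502 RPKM, for a log2 fold change of 0.04 with an SE of 0.38 and a limma adjusted p of 0.994.

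Of the endothelial genes, Eng, Cdh5 and Tek were the most widely present. Eng (endoglin), a co-receptor for TGF-beta ligands, had a lowest, median and highest value of 1.60, 7.38 and 18.5 RPKM in DCKO and of 0.854, 7.66 and 13.6 RPKM in control libraries at E11.5. Its highest library was male DCKO 4, where 18 of the 36 members were listed at 0. Tek, the angiopoietin receptor, was also highest in that library, at 14.3 RPKM, next to 14.2 RPKM in female DCKO 4, and was at 0.836 RPKM in male DCKO 1. These values did not follow the other members.

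Cdh5, the cadherin of endothelial junctions, reached 62.7 RPKM in male control 3, 37.0 RPKM in female DCKO 4 and 22.3 RPKM in male DCKO 1, and was at most 15.5 RPKM elsewhere. Emcn, an endothelial sialomucin, reached 62.3 RPKM in male DCKO 1 and 40.8 RPKM in male control 3. Kdr and Flt1, receptors for VEGF, reached 26.0 and 7.83 RPKM in male control 3, and Tie1 33.3 RPKM in male DCKO 1. Esam, an endothelial adhesion molecule, was listed at 0 in male DCKO 1 and was at 12.2 and 10.6 RPKM in male control 3 and female DCKO 4. Male DCKO 1 thus held high Emcn and Tie1 without Esam.

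The 8 endothelial genes had log2 fold changes at E11.5 from -0.75 (SE 0.64) for Esam to 0.54 (SE 0.80) for Tie1, 5 above 0 and 3 below, with limma adjusted p from 0.946 to 0.999. At E10.5 Tek was at 4.50, 2.26 and 1.95 RPKM in the DCKO libraries and at 1.47, 0.920, 0 and 1.14 RPKM in the controls, so its ranges did not overlap. That held for 5.15% of all genes tested at E10.5. The log2 fold change of Tek was 0.98 (SE 0.66), with an unadjusted p of 0.170 and a limma adjusted p of 0.991. The other 4 endothelial genes tested at E10.5 lay between -0.74 (SE 0.96) for Emcn and -0.21 (SE 0.83) for Eng.

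The keratins, intermediate filament proteins of simple epithelium, had an order of their own. Krt19 was listed at 0 in 10 of the 18 E11.5 libraries and was at 54.3 RPKM in female DCKO 6, against 7.76 RPKM in male control 3 and 4.81 RPKM in female DCKO 4. Krt18 was highest in the same library, at 24.6 RPKM. There the 14 further epithelial genes also had their highest mean log2 level of the 18 libraries, 2.76, and the erythroid genes a mean of 3.47. In male DCKO 1 Krt8 and Krt19 were listed at 0 and Krt18 was at 0.0974 RPKM, although the matrix genes were among the highest.

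Krt8 had a lowest, median and highest value of 0, 0.970 and 10.4 RPKM in DCKO and of 0, 0.321 and 10.9 RPKM in control libraries. At E11.5 the log2 fold changes were 0.22 (SE 0.59) for Krt8, 0.20 (SE 0.70) for Krt19 and -0.18 (SE 0.61) for Krt18, each at a limma adjusted p of 0.992. At E10.5 Krt18 was the 1 keratin tested, at a log2 fold change of -0.05, an SE of 0.86 and a limma adjusted p of 0.996.

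No member passed the adjusted threshold for genotype at either stage. At E11.5, 0 of the 35 tested were called, where 0.0237% of all 12667 genes were, and none of the 11 other settings tried, the left-out libraries or the set without the 3 high libraries called a member. Unadjusted p fell below 0.05 with a lower level in DCKO for 2 members, Fn1 and Vim (3.73% of all genes), and with a higher level for 0 (1.73%). The direction was below 0 for 22 of 35 (55.0% of all genes). The median log2 fold change of the members was -0.14, against -0.06 for all genes, and single members had SEs from 0.16 to 1.07. Of the 35, 7 passed the filter only through the 3 high libraries: Gata4, Emx2, Nr2f1, Tcf21, Prrx1, Lum and Flt1.

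At E10.5, 0 of the 16 tested members were called (0% of 11584 genes). Sparc alone had an unadjusted p under 0.05, with a lower level in DCKO (1.60% of all genes), and 0 were higher (1.49%). Of the 16, 11 had a value below 0 (53.2% of all genes), and the median was -0.29 against -0.05. Without male control 2 the median was 0.21, with 4 of 11 tested members below 0, so the direction rests on that library. Nr2f1, Twist1, Col3a1, Bgn and Emcn passed the filter only through it. DCKO and control ranges did not overlap for 2 of 16 members, Sparc and Tek (5.15% of all genes), and at E11.5 for 0 of 35 (0.0395%).

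Within sexes at E11.5 the directions were opposite. In females 31 of 35 members lay above 0, the median being 0.61 (47.8% of all genes above 0), and 0 were called (0.00789% of all genes). In males 34 of 35 were below 0, Eng being the exception, with a median of -0.95 (55.6% of all genes below 0), and 0 were called (0.0316%). Unadjusted p in males was under 0.05 with a lower level for Fn1 and Vim, 2 of 35 (4.21% of all genes), and with a higher level for 0 (2.74%). Without the 3 high libraries the medians were 0.21 in females and -0.83 in males. Single libraries moved the female median as much and the male median more. Without male control 3 alone the male median was -0.04, with 19 of 33 below 0, so the male direction depended on that library. Without female DCKO 4 alone the female median was 0.18, with 15 of 35 below 0. The male median was also -0.57 without male DCKO 2, -1.43 without male control 4 and -1.68 without male DCKO 1. The female median was 0.28 without female control 4, 0.38 without female control 2 and 1.04 without female control 3. The difference between the sexes, tested as an interaction, had a median of 1.62 with 34 of 35 above 0 (53.4% of all genes), and 0 members were called (0% of all genes). Without male control 3 that median was 0.71. Krt8 had the smallest p, with an interaction of 2.52 (SE 1.18, unadjusted p = 0.0461, limma adjusted p = 0.995).

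**Figure D5:**
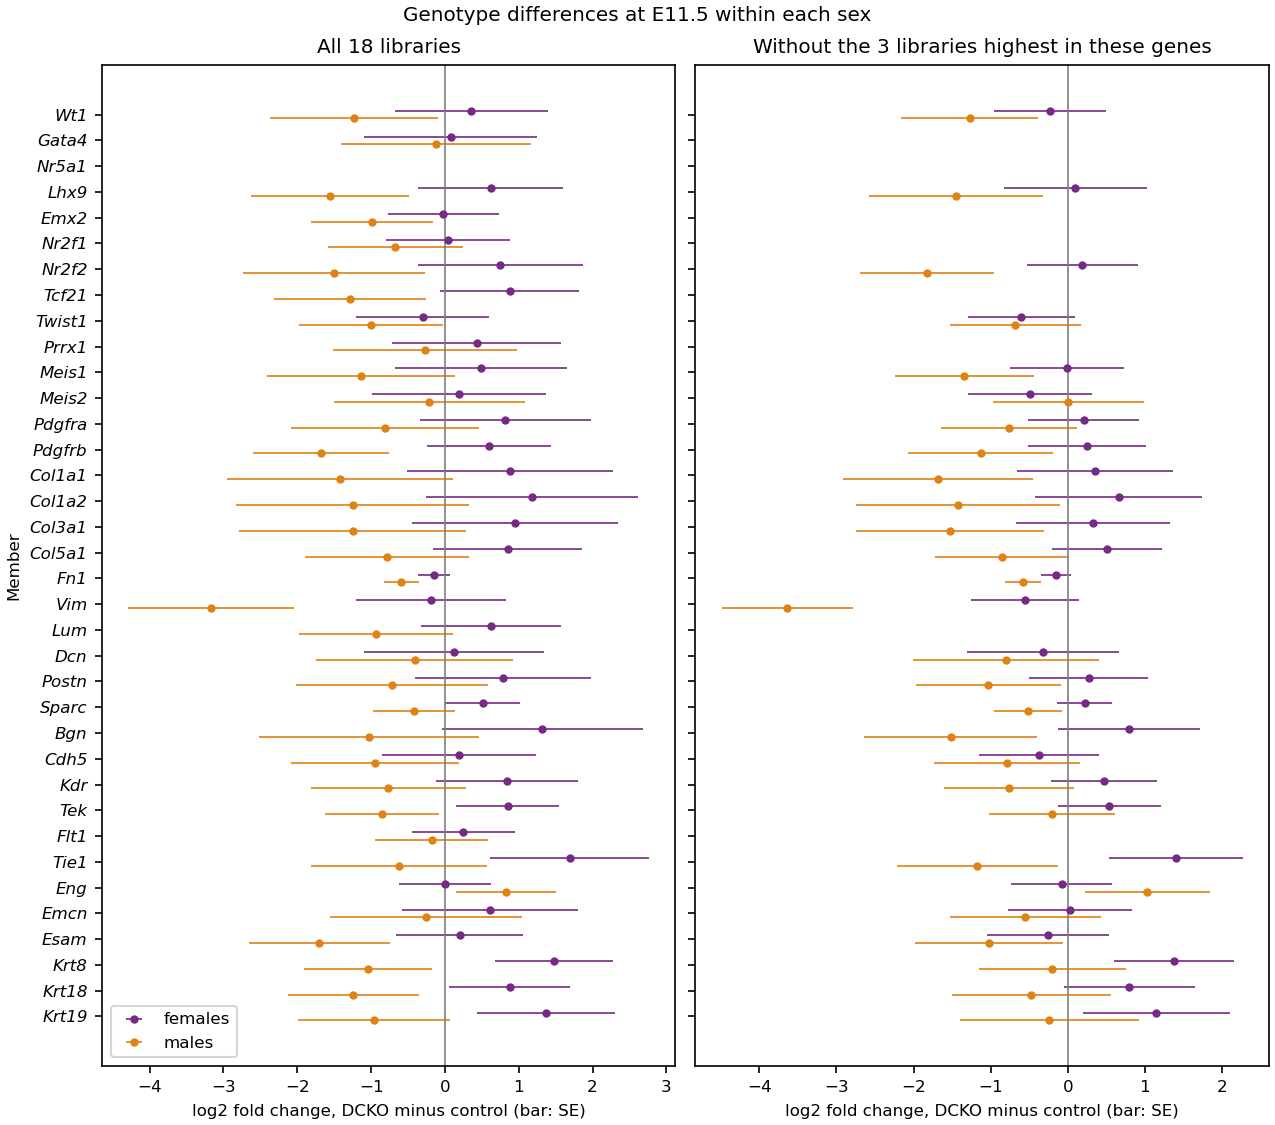
Log2 fold change of DCKO against control at E11.5 for each member in females and males, with its SE as a bar, for all 18 libraries (left) and without male control 3, female DCKO 4 and male DCKO 1 (right, 28 members tested). Male values lie left of female ones for 34 of 35 members on the left. Vim in males, at -3.17 on the left and -3.64 on the right, lies farthest from 0 among the 35 and 28 members.

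The library means show what these directions rest on. The mean log2 level of the members was 2.25 ± 1.14 in female DCKO (SD, n = 6) and 1.68 ± 0.87 in female control libraries (SD, n = 4). It was 1.66 ± 1.49 in male DCKO and 2.58 ± 1.75 in male control libraries (SD, n = 4 each). The differences between these means were smaller than the spread within the groups. Of the other lists, 21 of 25 tested further mesenchymal genes, 11 of 16 further endothelial genes and 6 of 6 erythroid genes were also below 0 in males, and 19, 12 and 6 were above 0 in females. Germ cell genes ran the other way, 8 of 12 above 0 in males and 10 of 12 below 0 in females. Further gonadal genes were split, 6 of 11 above 0 in males and 6 of 11 below 0 in females. Of 9 epithelial genes 5 were below 0 in males and 6 in females, and of 5 macrophage genes 3 and 4 were. All libraries, among them male control 3 and female DCKO 4, entered these counts of the other lists.

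Sex itself was tested at E11.5 as female minus male over both genotypes. Of the 35 members 0 were called (0.0395% of all genes), and 0 had an unadjusted p under 0.05 in either direction (4.31% of all genes higher and 1.39% lower in females). The direction was below 0 for 24 of 35 (43.8% of all genes), with a median of -0.12 against 0.07 for all genes. Without the 3 libraries 5 of 28 were below 0 and the median was 0.51, so the direction turned. Gata4 had a log2 difference of -0.69 (SE 0.87), Eng -0.69 (SE 0.46), Krt18 0.86 (SE 0.61) and Sparc -0.43 (SE 0.38), with limma adjusted p between 0.902 and 0.931. At E10.5, 0 of 16 members were called for sex (0.0173% of all genes). Of the 16, 12 were below 0 (5679 of all 11584 genes), with a median of -0.54 against 0.01 for all genes. Male control 2 was the high library there, and 5 of the 16 passed the filter only through it. Without it 11 members were tested, most of them still below 0, from -0.59 for Vim to 1.07 for Eng.

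The stages were set side by side without a test, since their tables may have been scaled separately. The median RPKM of 31 of the 36 members was higher at E11.5 than at E10.5 (86.1%), against 51.5% of the 12667 genes tested at E11.5. Medians of at least 1 RPKM numbered 8 members at E10.5 and 19 at E11.5, against 10018 and 10420 of the 12667 genes. Those genes were taken by their mean at E11.5, whereas the members were not. Col1a2 had medians of 0.234 and 6.65 RPKM, Col3a1 0.527 and 6.41 RPKM, and Bgn 0.328 and 3.93 RPKM. All 11 matrix genes and all 7 mesenchymal factors had the higher median at E11.5. Fn1, at 96.5 and 112 RPKM, and Cdh5, at 3.45 and 3.67 RPKM, differed little beside their spread. Flt1, Esam and Krt8 had the lower median at E11.5, and Nr5a1 and Krt19 had a median of 0 at both stages.

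By rank within a library, which does not depend on the scaling, the median percentile over libraries was higher at E11.5 for 32 of 36 members (88.9%, against 51.0% of all genes). Nr5a1 and Krt19 count among them only through the rank given to tied genes at 0, since both had medians of 0 at both stages. Col1a2 went from the percentile 49.5 to 71.3 and Dcn from 22.4 to 53.7. The E10.5 percentile of Dcn, and of every other member with a median of 0 there, is a rank of tied genes at 0. The exceptions were Meis2, Flt1, Esam and Krt8.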

How the data were processed

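Polyadenylated RNA of sorted mouse germ cells was measured in 25 libraries. The authors deposited 1 table per stage in RPKM. The submitters' processing notes list the build mm9 and, with no roles stated, Cufflinks version 2.2.1, Cuffdiff and TopHat2 version 2.1.0. No source used here gives the gene models or filters, and depth is unknown. RPKM is not counts, so limma version 3.58.1 (R version 4.3.3) with an intensity trend was run on log2(RPKM + 1), within each table, on the genes whose mean reached 1 RPKM. Fold changes on this scale understate those of low genes. The E11.5 model had 4 group means (sex by genotype), and the E10.5 model had terms for genotype and sex. Tests were two-sided, with Benjamini-Hochberg adjusted p over all genes tested and a threshold of 0.05. The fit was checked on simulated data of a log2 change of 2. It recovered 198 of 200 changed genes with the E11.5 genotype comparison (12241 genes), with 9 false calls. With that of E10.5 (11153 genes) it recovered 56 of 200, with 7 false calls. The changed genes were drawn from those of high level and small spread, and genes varied independently. Most members were lower or more variable, so these rates do not apply to them.

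The members and lists were chosen with earlier results of these data known. Values in every group were given, per class, for the 3 members with the highest median at E11.5 and the member with the smallest p for genotype at each stage and for sex at E11.5. Of the other lists the rule named the 2 genes with the smallest p for genotype at E11.5. Those of the further gonadal list are not reported here. Any further member was picked with its values in view. Alternatives were pseudocounts of 0.1 and 0.5, no filter or a mean of at least 5 RPKM, library weights, quantile normalization, median-of-ratios scaling, a block for replicate or title number, no trend, genes at 0 in a whole genotype left out, each sex alone and each library left out. Leaving out the libraries highest in the members was chosen after seeing the data. Promoter sequences came from a RefSeq table of build GRCm38.p6.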

Additional observations from a re-analysis of the deposited data

Results flagged for a closer look

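In groups of 4 to 6 E11.5 libraries, a library was singled out where its gap to the nearest other took up most of the group's range (Dixon's test at 95%). Of 116 such tests over member classes and named members 20 were positive, in 7 libraries. The test's chance rate of about 1 in 20 assumes normally distributed values. Many members were high in few libraries, and the tests share genes and libraries, so the count cannot be weighed against that rate. Male DCKO 1, female DCKO 4 and male control 3 were picked earlier by the mean of the same members. Their positive tests therefore restate that choice in part. Values below are log2(RPKM + 1), means for classes.

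Male DCKO 1 accounted for 11. It was the highest of 4 male DCKO libraries for the gonadal factors at 2.52 (next 0.21), the mesenchymal factors at 3.96 (next 0.74), the matrix genes at 5.96 (next 1.91) and all members at 3.88 (next 1.15). The same held for Lhx9 at 1.47, Gata4 at 6.32, Emx2 at 0.87, Meis1 at 5.30, Twist1 at 2.54, Nr2f1 at 2.63 and Prrx1 at 5.55.

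Female DCKO 4 was the highest of 6 for the gonadal factors at 3.75 (next 1.04), all members at 4.38 (next 2.25) and Prrx1 at 4.50 (next 1.62). Female control 3 was highest for Lhx9 at 4.63 (next 0.29), and male control 3 for Krt19 at 3.13 (next 0.41). Female control 4 was highest for Krt19 at 0.16, a level near 0.

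Eng was lowest in male control 4 at 0.89 (next 3.46) and in male DCKO 3 at 2.61 (next 4.09), and Krt8 was highest in male DCKO 3 at 1.53 (next 0.08). The causes were not tested.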

How the results depend on the processing

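No setting called a member in any comparison. The median log2 fold change of the members for genotype at E11.5, -0.14 with all libraries, ran from -0.62 without male DCKO 1 to 0.29 without male control 3. For genotype at E10.5 it ran from -0.73 without male control 1 to 0.21 without male control 2, and for sex at E11.5 from -0.42 without male control 4 to 0.32 without male control 3. With a replicate block the genotype medians were 0 at E11.5 and -0.07 at E10.5, and with a block for title number -0.02 and -0.69. Libraries of the same replicate number had correlations of their deviations of -0.227 to 0.249 at E11.5, 5 of 24 above 0.1. Their median was 0.009, against 0.001 for other pairs, and at E10.5 the highest was 0.054. Title numbers gave -0.023 to 0.49 at E11.5, 7 of 16 above 0.1. Their median was 0.081, against -0.005 for other pairs, so some libraries of a title number varied together. The main fits had no term for title number.

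Some named members changed sign. For Krt18 at E10.5 the log2 fold change, -0.05, was 0.16 with library weights, 0.17 with the replicate block, 0.21 without male control 2 and -0.71 to 0.58 with each library left out. With each left out, Krt8 for genotype at E11.5 ran from -0.02 to 0.57. For sex at E11.5 Gata4, -0.69 with all libraries, ran from -0.99 to 0.09, Prrx1, -0.54, from -0.86 to 0.14 and Pdgfrb from -0.68 to 0.01, and Prrx1 was 0.06 with library weights. Vim for genotype at E11.5 ran from -2.31 to -1.28 and Fn1 from -0.44 to -0.30. The lowest adjusted p of Vim for genotype over both sexes among the settings other than single left-out libraries was 0.347, with library weights. The causes were not tested. Depth is unknown, so no detection floor is given.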

Other observations

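Of the lists outside the 36 members, none had a gene called for genotype at E11.5. Values below are log2 fold changes of DCKO against control.

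Among macrophage genes Tyrobp was at -1.66 (SE 0.51, limma adjusted p = 0.849) and C1qb at -1.24 (SE 0.44, limma adjusted p = 0.884), both highest in male control 2. Krt7 was at -1.26 (SE 0.44, limma adjusted p = 0.884) and Esrp1 at -0.67 (SE 0.50, limma adjusted p = 0.946) among epithelial genes. Tagln was at -1.05 (SE 0.69, limma adjusted p = 0.937) and Fstl1 at -0.73 (SE 0.60, limma adjusted p = 0.946) among mesenchymal genes, and Plvap at 0.65 (SE 0.62, limma adjusted p = 0.950) and Notch4 at -0.44 (SE 0.43, limma adjusted p = 0.954) among endothelial genes. Of the germ cell genes Pou5f1 was at -0.73 (SE 0.56, limma adjusted p = 0.946) and Dppa3 at 0.41 (SE 0.46, limma adjusted p = 0.966). Of the erythroid genes Hba-x was at -0.88 (SE 1.66, limma adjusted p = 0.989) and Hba-a2 at 0.22 (SE 0.84, limma adjusted p = 0.992).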
